A study of Mus musculus with 35 samples.

Results

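The genes described here are 9 extracellular matrix genes, comprising the fibrillar collagen chains Col1a1, Col1a2 and Col3a1, the basement membrane collagen chains Col4a1 and Col4a2, the small leucine-rich proteoglycans Dcn (decorin) and Lum (lumican), fibronectin (Fn1) and the receptor gene Pdgfrb. They were chosen by gene symbol, as a set of matrix genes together with a receptor of the cells that wrap small blood vessels, and make up 9 of the 55401 genes counted. All 9 reached 0.5 CPM (counts scaled to the size of each library) in 5 or more mice and were among the 17612 genes tested. By 8 weeks the 5 collagen chains had fallen to between 4.45 and 42.8 CPM on average from between 59.1 and 307 CPM at P6, whereas Pdgfrb averaged 86.4 CPM at P6 and 82.5 CPM at 8 weeks.

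Fibrillar collagens are triple helices that assemble into the tension-bearing fibres of connective tissue, and in the brain they lie mainly in the meninges and around larger vessels. Type IV collagen forms the sheet-like network of basement membranes, which in brain surround the capillaries between endothelial cells, pericytes and astrocyte endfeet. PDGFRB is the receptor through which PDGF-B from endothelial cells recruits pericytes, and it is a standard marker of pericytes and vascular smooth muscle cells. None of these genes is a textbook marker of microglia.

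The mRNA came from CD45+ve cells that were immunopanned from the papain-digested brains of wild-type C57BL/6 mice, and each mouse gave 1 library. The meninges had been pulled away with forceps before digestion, and no mouse carried a transgene or was treated. The groups were P6 (4 females and 6 males used), P15 (6 females and 6 males) and 8 weeks of age (6 females and 6 males). The study removed 1 mouse that stood apart on a multidimensional scaling plot without naming it in its text. P6 female 6 is the 1 mouse with a library here that is absent from the mice named in its plotted values, so it was taken to be that mouse and left out, and 34 of 35 libraries were used.

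Libraries held between 23316107 and 38965078 counts, so that 3 counts corresponded to between 0.0770 and 0.129 CPM. The lowest count of any of the 9 genes in a used library was 7, for Lum. The microglial markers P2ry12 and Tmem119 averaged 2240 and 1738 CPM over the 3 ages, and the summed level of 8 microglial markers had a median of 6021 CPM in P6 mice, 18082 CPM in P15 mice and 21569 CPM in adults. Markers of vessel wall cells, fibroblasts and neural cells were detected in the same libraries, as described beside the results they touch. In such a bulk sample, fewer cells of a type and less RNA per cell cannot be told apart.

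The collagen transcripts are textbook targets of the miR-29 family, whose 3 mature microRNAs share 1 seed (bases 2 to 8). Their sequences, from RefSeq on GRCm38.p6, are shown because the same seed match recurs among the collagens here, with the seed in capitals. The miRNA libraries of the study were not analysed here.
mmu-miR-29a-3p: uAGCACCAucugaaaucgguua
mmu-miR-29b-3p: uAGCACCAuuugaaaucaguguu
mmu-miR-29c-3p: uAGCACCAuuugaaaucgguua

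The complement of that seed, TGGTGCT, was searched on the transcript strand in the 3′ UTR of 1 main coding transcript per gene (GENCODE M21 on GRCm38). It was found once in Col1a1, once in Col3a1, once in Col4a1 and at 2 places in Col4a2, each printed with its flanks, in transcript orientation and with the match in capitals.
Col1a1, chr11:94952526-94952549, plus strand: ggaaggaatttcTGGTGCTataga
Col3a1, chr1:45348970-45348993, plus strand: aaaatgtctcaaTGGTGCTataat
Col4a1, chr8:11199757-11199780, minus strand: accgtcacaacaTGGTGCTactcc
Col4a2, first match, chr8:11448347-11448370, plus strand: ggaaggccacgtTGGTGCTtatcc
Col4a2, second match, chr8:11448518-11448541, plus strand: ccacacccagctTGGTGCTtactc

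Pdgfrb also held 1 match, 1662 bases after its stop codon in a UTR of 1678 bases, whereas the UTRs of Col1a2, Dcn, Lum and Fn1 held none. The match was therefore present in 4 of the 5 collagen chains and in 5 of the 9 genes, beside 14.35% of the 14601 tested genes that had UTR bases and 10.47% of the 5672 among them with a UTR between 488 and 1678 bases long. Per kilobase of UTR the density was 0.891 matches in the collagens and 0.113 over the 14768 tested genes with a main coding transcript. These are matches of letters only, and whether they bear on the levels below was not tested. The matches of Col4a1 and of the first site of Col4a2 lay close to the stop codon, 33 and 43 bases after it.

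**Figure D1:**
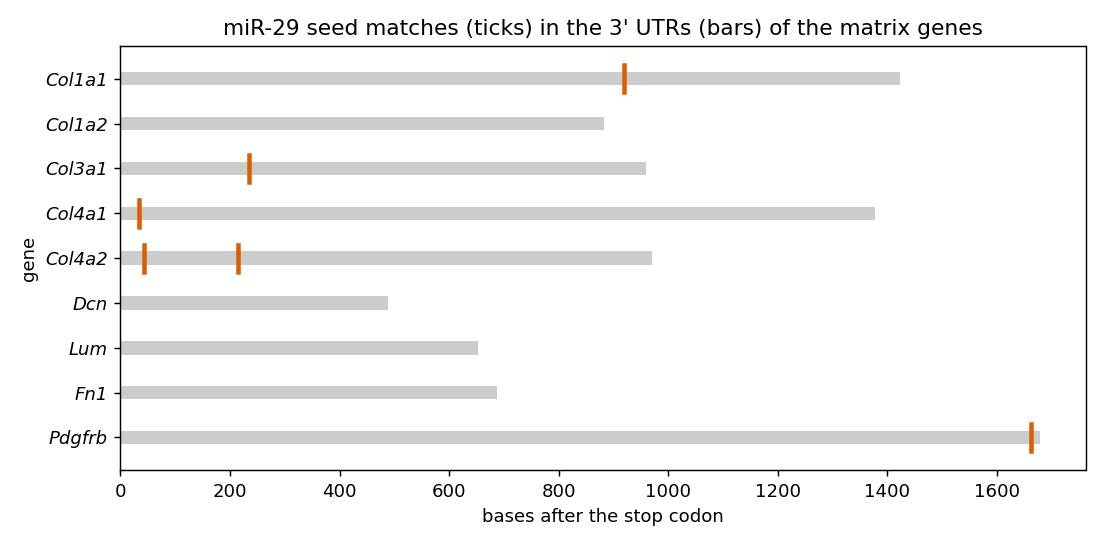
Positions of the miR-29 seed match in the 3′ UTRs of the 9 genes. The x axis gives bases after the stop codon, the grey bars span each UTR and the orange ticks mark the matches, of which there are 2 in Col4a2 and none in Col1a2, Dcn, Lum and Fn1.

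Among the fibrillar collagens, Col1a1 encodes the alpha 1 chain of type I collagen (chr11:94936224-94953042, plus strand) and had the following levels in TMM-normalised CPM. It ran from 20.6 to 82.9 CPM among P6 mice (median 63.4, n = 10), from 19.4 to 73.1 CPM among P15 mice (median 28.6, n = 12) and from 3.82 to 13 CPM among adults (median 7.15, n = 12). Every 8-week mouse lay below every younger mouse, whereas P6 and P15 overlapped, with 2 of 12 P15 mice below the lowest P6 mouse. The log2 fold change (log2FC) was −0.80 (SE 0.220, FDR 0.00234) at P15 against P6, −2.30 (SE 0.222, FDR 7.7e-10) at 8 weeks against P15 and −3.10 (SE 0.234, FDR 2.8e-13) at 8 weeks against P6, by edgeR's quasi-likelihood test with Benjamini-Hochberg adjustment over all genes tested.

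Its partner Col1a2, the alpha 2 chain of the same heterotrimer (chr6:4504814-4541544, plus strand), ran from 28.4 to 107.6 CPM among P6 mice (median 88.2), from 25.5 to 138 CPM among P15 mice (median 55.9) and from 5.45 to 35.4 CPM among adults (median 17.1). All 8-week mice but 8-week female 1 lay below both younger groups. The P15 against P6 difference of −0.35 did not pass the test (95% interval −0.84 to 0.13, FDR 0.220), while Col1a2 fell by 1.99 (SE 0.245) between P15 and 8 weeks and by 2.34 (SE 0.256) between P6 and 8 weeks on the log2 scale, both past the 2-fold threshold.

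Col3a1, the single chain of type III collagen, which is found beside type I in vessel walls and reticular tissue (chr1:45311538-45349706, plus strand), showed the lowest 8-week level relative to P6 among the 9 genes. It ran from 20.7 to 92.8 CPM among P6 mice (median 62.4), from 18.7 to 59.4 CPM among P15 mice (median 35) and from 2.14 to 7.95 CPM among adults (median 4.24). As for Col1a1, no 8-week mouse overlapped with either younger group. The fitted level at 8 weeks was 14.6-fold lower than at P6 (log2FC −3.86, SE 0.261, FDR 2.0e-14) and 8.03-fold lower than at P15 (log2FC −3.01, SE 0.248, FDR 2.4e-11), and the earlier step from P6 to P15 had a log2FC of −0.86 (SE 0.238, FDR 0.00246).

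**Figure D2:**
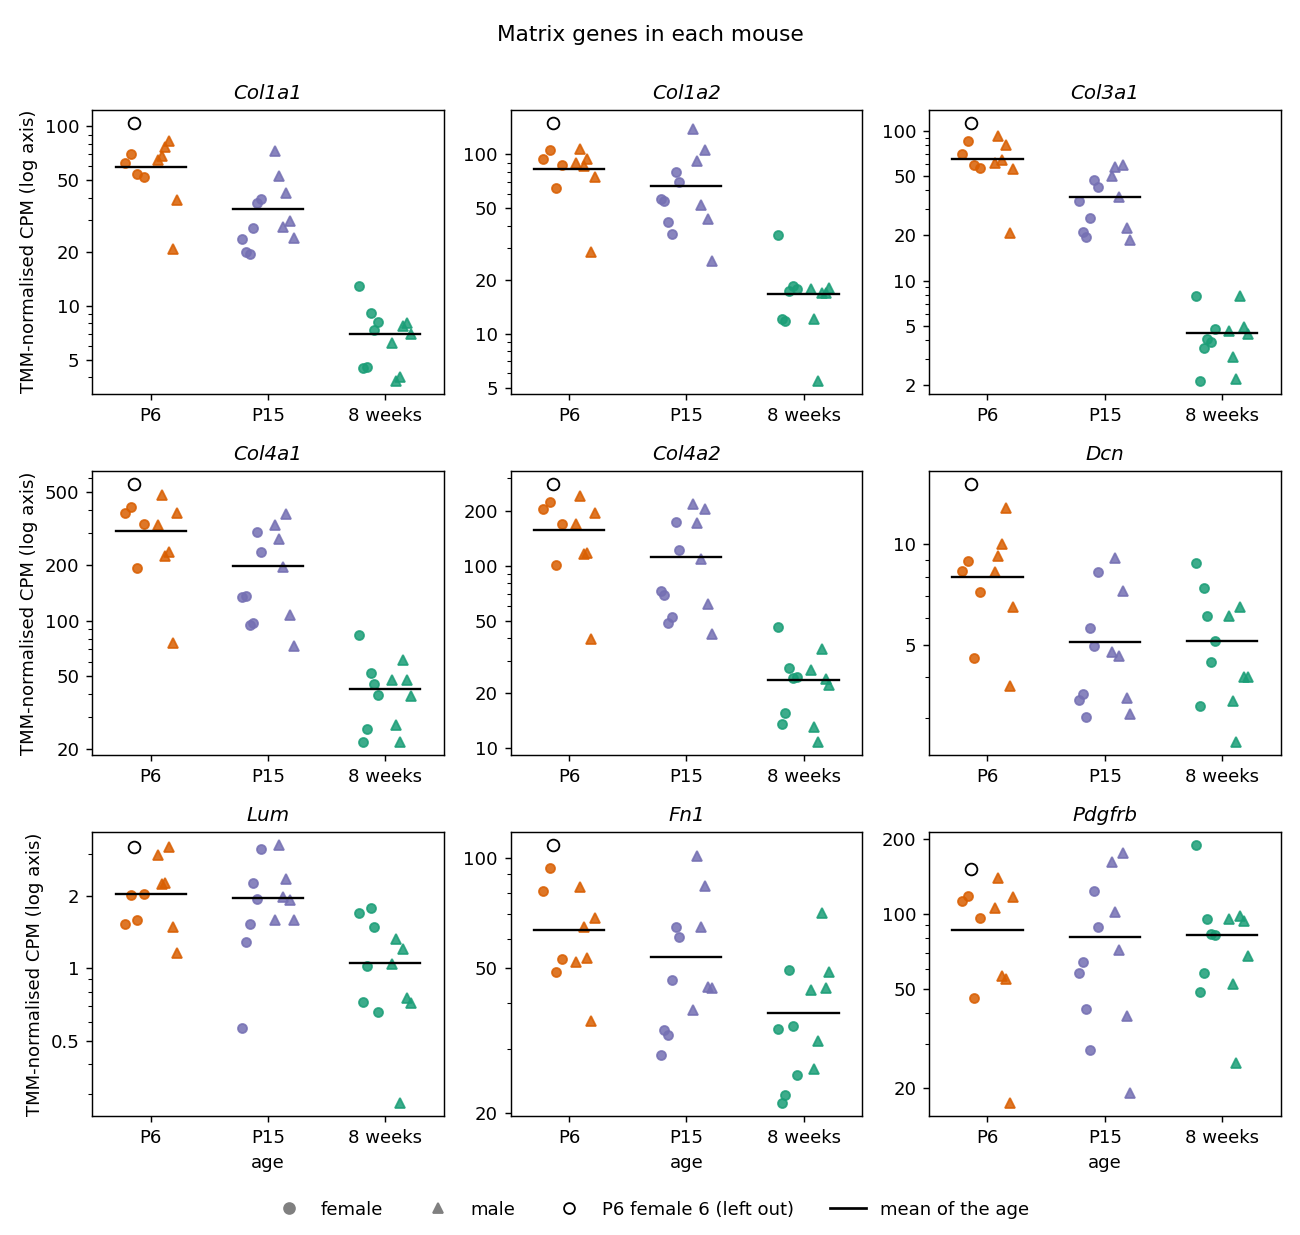
TMM-normalised CPM (log axis) of each of the 9 genes in each mouse by age, with circles for females, triangles for males, black lines for the mean of each age and an open circle for P6 female 6, which was left out and was scaled among all 35 libraries. The 8-week mice lie below all younger mice for Col1a1 and Col3a1, all but 1 do so for Col1a2, Col4a1 and Col4a2, and the ages overlap throughout for Pdgfrb.

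Per length of exon, as given below, the type IV chains were the most abundant of the 5 collagen chains. Col4a1 (chr8:11198423-11312826, minus strand) ran from 75.4 to 484 CPM among P6 mice (median 335), from 72.7 to 382 CPM among P15 mice (median 166) and from 21.9 to 83.6 CPM among adults (median 42.5). Col4a2 (chr8:11312805-11449287, plus strand) ran from 39.5 to 240.6 CPM among P6 mice (median 169), from 42.4 to 217 CPM among P15 mice (median 90.6) and from 10.8 to 46.0 CPM among adults (median 24.1). For both chains 11 of 12 adult mice lay below the lowest P6 mouse and below the lowest P15 mouse, the exception being 8-week female 1.

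At 8 weeks Col4a1 was 7.27-fold lower than at P6 (log2FC −2.86, SE 0.306, FDR 7.4e-10) and Col4a2 was 6.75-fold lower (log2FC −2.76, SE 0.308, FDR 2.0e-09). From P15 to 8 weeks they fell by 2.19 (SE 0.290) and 2.22 (SE 0.294) on the log2 scale. At P15 against P6 Col4a1 passed the test narrowly (log2FC −0.67, SE 0.292, FDR 0.0465) and lost the call when any of 20 of the 34 mice was left out in turn, with an FDR of up to 0.0948, while Col4a2 did not pass it (−0.54, 95% interval −1.12 to 0.04, FDR 0.113). Whether the later step was larger than the earlier one was not tested for any gene.

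Col4a1 and Col4a2 stand head to head on opposite strands, and their annotated starts in RefSeq (GRCm38.p6) overlap by 22 bases. The stretch is shown because this pair was the most alike of all pairs below, and it is given on the plus strand.
Col4a1 and Col4a2 shared start, chr8:11312805-11312826: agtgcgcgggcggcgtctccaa

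The fragments were counted by strand, so reads of the chains can be told apart there. The ratio of Col4a1 to Col4a2 counts within a mouse averaged 1.95 ± 0.0512 in P6 mice (SD, n = 10), 1.80 ± 0.136 in P15 mice (n = 12) and 1.82 ± 0.158 in adults (n = 12), and over all 34 mice it stayed between 1.53 and 2.09 while the level of Col4a1 itself ranged from 21.9 to 484 CPM. The ratio was slightly lower at P15 than at P6 (adjusted p = 0.0044, permutation test) and at 8 weeks than at P6 (adjusted p = 0.0254), and its difference between P15 and 8 weeks did not pass (adjusted p = 0.766). All p-values of ratios are two-sided, from 100000 permutations of the mice, and adjusted over 12 such tests.

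The proteoglycans were at low levels. Dcn, whose protein binds collagen fibrils and regulates their spacing (chr10:97479609-97518143, plus strand), ran from 3.76 to 12.9 CPM among P6 mice (median 8.30), from 3.04 to 9.13 CPM among P15 mice (median 4.69) and from 2.55 to 8.77 CPM among adults (median 4.77). The 3 ages overlapped. Dcn fell by 0.62 on the log2 scale from P6 to P15 (SE 0.225, FDR 0.0175), and its log2FC from P15 to 8 weeks was −0.00 (95% interval −0.42 to 0.42, FDR 0.994), the step over which each collagen chain fell past 2-fold.

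Lum, a keratan sulphate proteoglycan of the same family (chr10:97565128-97572703, plus strand), ran from 1.16 to 3.22 CPM among P6 mice (median 2.03), from 0.567 to 3.28 CPM among P15 mice (median 1.94) and from 0.274 to 1.78 CPM among adults (median 1.03). Its log2FC was −0.03 at P15 against P6 (95% interval −0.52 to 0.46), and it fell by 0.90 on the log2 scale from P15 to 8 weeks (SE 0.240, FDR 0.00275). Its level rests on between 7 and 124 counts a library.

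The ratio of Dcn to Col1a1 counts within a mouse describes how far these genes parted. As this ratio was chosen with earlier results of these data known, its p-values restate the changes above and are no separate support. It averaged 0.138 ± 0.0265 in P6 mice (SD, n = 10), 0.154 ± 0.0401 in P15 mice (n = 12) and 0.778 ± 0.301 in adults (n = 12). Every 8-week mouse was above every younger mouse, with 0.498 as the lowest adult value and 0.210 as the highest at P15. The difference of 8 weeks from P15 (adjusted p = 4e-05, permutation test) and from P6 (adjusted p = 9e-05) passed, whereas that of P15 from P6 did not (adjusted p = 0.518).

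Fibronectin, a glycoprotein that links cells to collagen through integrins and is also made by endothelial cells (Fn1, chr1:71585520-71653200, minus strand), ran from 35.8 to 93.7 CPM among P6 mice (median 59.0), from 28.9 to 101 CPM among P15 mice (median 45.2) and from 21.4 to 70.7 CPM among adults (median 34.4). The ages overlapped, with 7 of 12 adult mice below the lowest P6 mouse. Fn1 fell by 0.79 on the log2 scale from P6 to 8 weeks (SE 0.199, FDR 7.1e-04) and by 0.51 from P15 to 8 weeks (SE 0.189, FDR 0.0273), and neither change passed the 2-fold threshold. Its later call was lost without 8-week female 2, P15 female 5, P15 male 2 or P15 male 4 (FDR between 0.0501 and 0.0585).

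Pdgfrb (chr18:61045150-61085061, plus strand) ran from 17.5 to 140 CPM among P6 mice (median 101), from 19.2 to 175 CPM among P15 mice (median 67.8) and from 25.2 to 190 CPM among adults (median 82.6). Its spread between mice of 1 age was wide, with a coefficient of variation between 46.0% and 62.7%, and its means were close together. The log2FC was −0.13 (95% interval −0.80 to 0.54) at P15 against P6, 0.04 (−0.60 to 0.67) at 8 weeks against P15 and −0.09 (−0.77 to 0.58) at 8 weeks against P6. A change of up to 0.80 on the log2 scale lies within these intervals, and the falls of the 5 collagen chains at 8 weeks lie outside them.

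Set against Pdgfrb within each mouse, Col4a1 gave a ratio of counts of 3.72 ± 0.441 in P6 mice (SD, n = 10), 2.63 ± 0.525 in P15 mice (n = 12) and 0.542 ± 0.117 in adults (n = 12). The highest adult ratio was 0.870, in a range that did not meet the lowest P15 ratio of 2.05. The difference from 8 weeks to each younger age had an adjusted p of 4e-05 by permutation test, with an unadjusted p of 1e-05 that is the smallest 100000 permutations can give, and the P15 against P6 difference also passed (adjusted p = 1.7e-04). The ratio of Col1a1 to Col1a2 counts was 0.714 ± 0.123 at P6, 0.557 ± 0.166 at P15 and 0.436 ± 0.113 at 8 weeks, with overlapping ages and adjusted permutation p-values of 0.0226, 0.0402 and 3e-04 for P15 against P6, 8 weeks against P15 and 8 weeks against P6.

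**Figure D3:**
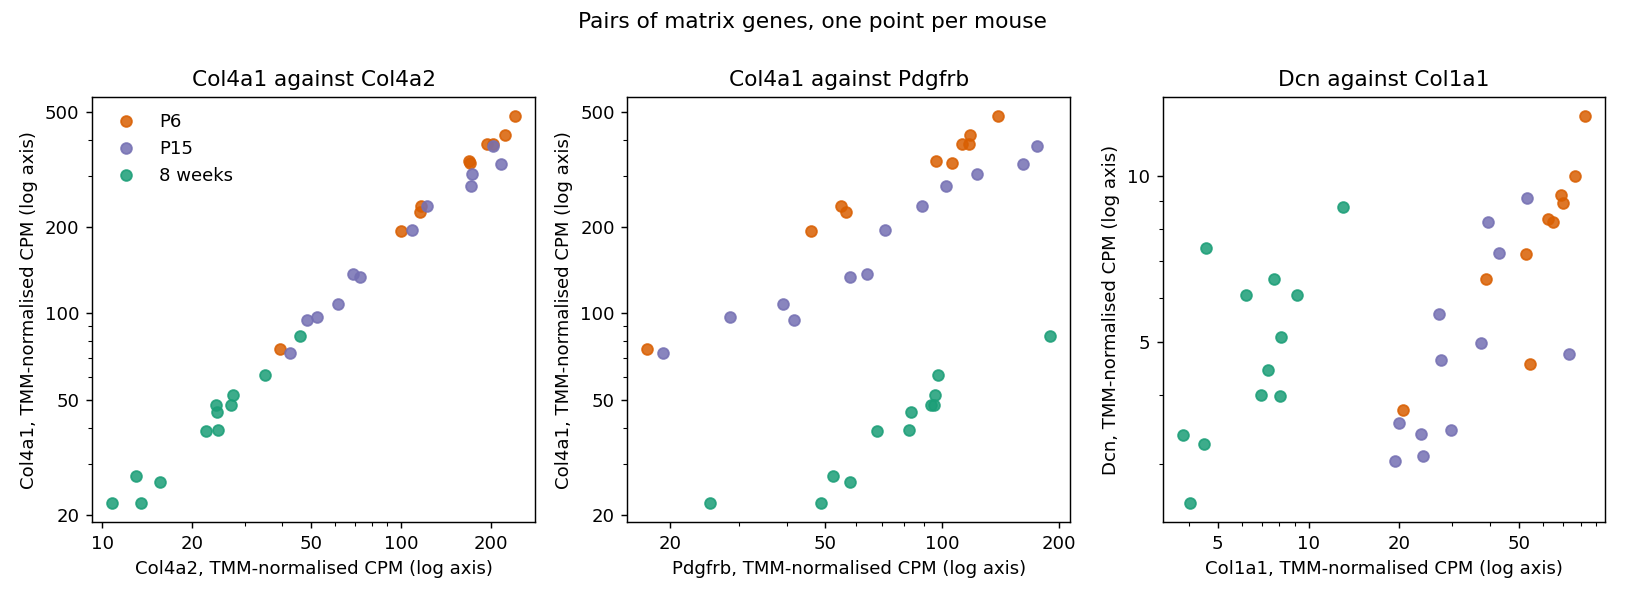
Levels of 3 pairs of matrix genes in TMM-normalised CPM on log axes, with 1 point per mouse coloured by age. Col4a1 and Col4a2 lie along 1 line at all ages, whereas the 8-week mice form a separate band for Col4a1 against Pdgfrb and for Dcn against Col1a1.

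Counted as a set, 5 of the 9 genes were past the 2-fold threshold (FDR below 0.05, glmTreat) at 8 weeks against P6, all of them collagen chains and all lower, and the same 5 were past it at 8 weeks against P15. Over all tested genes 12.4% were past that threshold in the lower direction at 8 weeks against P6 and 3.07% at 8 weeks against P15. At P15 against P6, 0 of the 9 genes were past 2-fold, beside 4.85% of all genes lower. That count was also 0 by limma-voom and by DESeq2, and 0 of the 9 had an unadjusted p of the 2-fold test below 0.05 by any of the 3 tools.

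Against no change, 4 genes (Col1a1, Col3a1, Col4a1 and Dcn) were lower at P15 than at P6, 8 (all but Pdgfrb) were lower at 8 weeks than at P6 and 7 (all but Dcn and Pdgfrb) were lower at 8 weeks than at P15. The shares of all tested genes called lower in the same way were 31.4%, 36.6% and 23.9%. None of the 9 was called higher in any of the 3 comparisons, beside 30.4%, 37.8% and 24% of all tested genes. The median log2FC of the 9 genes was −0.54, −2.34 and −1.99 in these comparisons, beside −0.01, 0.04 and 0.02 over all genes tested. Groups did not overlap for 0 of the 9 genes at P15 against P6, for 2 (Col1a1 and Col3a1) at 8 weeks against P6 and for the same 2 at 8 weeks against P15, where 7.72%, 14.8% and 1.72% of all tested genes were lower without overlap.

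**Figure D4:**
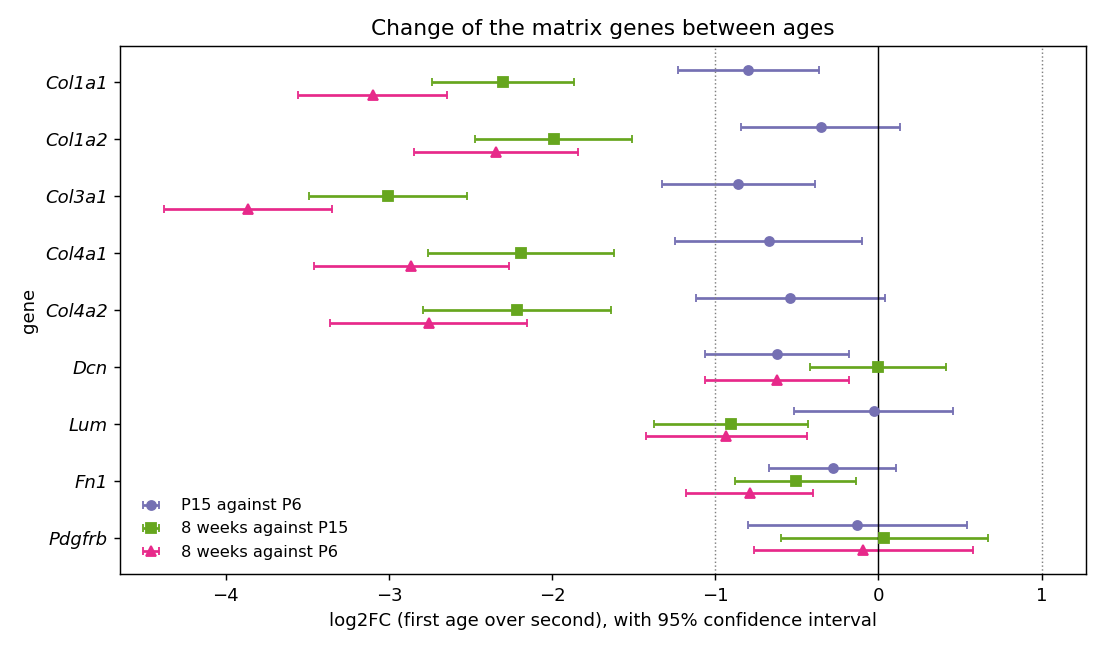
The log2FC of the 9 genes between ages with 95% confidence intervals, the first age named over the second, and dotted lines at a 2-fold change. The collagen chains lie between −1.99 and −3.86 in both comparisons that involve 8 weeks, and the intervals of Pdgfrb include 0 in all 3.

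No difference between the sexes was detected for these genes. At P15 males were higher than females in all 9, by 0.16 to 0.58 on the log2 scale, but the lowest FDR was 0.282, for Col1a1, which averaged 41.7 ± 18.8 CPM in males and 27.8 ± 8.70 CPM in females (SD, n = 6 each). By edgeR 0 of the 9 genes passed at P6, P15 or 8 weeks, beside 0.0511%, 0.0681% and 0.114% of all tested genes, and 0 had an unadjusted p below 0.05. Limma-voom and DESeq2 also gave 0 calls, with 1 unadjusted p below 0.05, by DESeq2 at P15. For the interaction of sex and age 0 of the 9 genes passed in any comparison by any of the 3 tools, and 0% of all tested genes passed by edgeR or limma-voom in each, while DESeq2 called 145 of all genes for P15 against P6, 0 for 8 weeks against P6 and 2 for 8 weeks against P15. An unadjusted p below 0.05 was seen for Col1a1 alone by edgeR and by DESeq2, at 8 weeks against P15 (edgeR FDR 0.870), and for 0 of the 9 by limma-voom.

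Within an age and sex the levels of the 9 genes were related from mouse to mouse. After the mean of each age and sex group was subtracted from log2 CPM, the 36 pairs of genes had a Pearson r over the 34 mice between 0.351, for Lum and Pdgfrb, and 0.993, for Col4a1 and Col4a2, with a median of 0.711. The points share their library, and so its depth and its content of other cells. P6 male 5 was the lowest P6 mouse for every gene but Lum, and 8-week female 1 was the highest adult mouse for every gene but Lum and Fn1. P15 male 6 was the lowest P15 mouse for Col1a2, Col3a1, Col4a1, Col4a2 and Pdgfrb, and 8-week male 3 the lowest adult for Col1a2, Col4a1, Col4a2, Dcn, Lum and Pdgfrb. Their marker levels differed from those of the other mice in several lists at once. P6 male 5 had the lowest summed level among P6 mice for the markers of mural cells (189 CPM, median 923 CPM), fibroblasts (78.7 CPM, median 214 CPM), choroid plexus, neural progenitors, astrocytes and the oligodendrocyte lineage, and the highest for microglia (9441 CPM, median 6021 CPM) and border-associated macrophages. 8-week female 1 had the highest among adults for mural cells (1376 CPM, median 670 CPM), fibroblasts (214 CPM, median 99.9 CPM), neural progenitors and astrocytes, and the lowest for microglia (17423 CPM, median 21569 CPM) and border-associated macrophages. P15 male 6 had the lowest of its age for mural cells (169 CPM, median 713 CPM), fibroblasts, neurons, neural progenitors and astrocytes, and the highest for microglia and border-associated macrophages. 8-week male 3 had the lowest of its age for mural cells (212 CPM, median 670 CPM), fibroblasts and astrocytes, and the highest for neurons and the oligodendrocyte lineage. The part of these cells in the levels of the 9 genes was not tested. Without P6 male 5 the log2FC at 8 weeks against P6 was −3.95 for Col3a1, −2.96 for Col4a1 and −0.20 for Pdgfrb, and without 8-week female 1 it was −3.99, −3.0 and −0.26. Without P15 male 6 it was −3.87, −2.87 and −0.10, and without 8-week male 3 it was −3.82, −2.83 and −0.03. With P6 female 6 added back these values were −3.96, −2.96 and −0.18, and the same 5 collagens were past 2-fold.

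The 3 genes most like each of the 9 were found by the same within-group r among all genes tested. Col4a1 was nearest to Col4a2 (r = 0.993), Bgn (biglycan, 0.978) and Lamb1 (laminin beta 1, 0.978), and Col4a2 to Col4a1, the pericyte-secreted vitronectin gene Vtn (0.984) and Igfbp7 (0.980). Pdgfrb was nearest to S1pr3 (0.988), the mural cell gene Cd248 (0.987) and Vtn (0.983), and Col1a2 to Lamc3 (0.954), Cd248 (0.942) and Notch3 (0.941). Fn1 stood with Podxl (0.911), the endothelial receptor gene Flt1 (0.893) and Lsr (0.890). Col1a1 was nearest to Col3a1 (0.871), Col1a2 (0.852) and Vim (0.851), and Col3a1 to Aoc3 (0.913), Gpc3 (0.913) and Myl9 (0.910). Dcn was nearest to Col3a1 (0.828), Cxcl12 (0.827) and the fibroblast transcription factor gene Foxc1 (0.816), and Lum, at its low counts, to Scara5 (0.740), Gipc3 (0.698) and Adamts14 (0.685).

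Divided by the length of all annotated exons, levels can be set against each other between genes. In RPKM (CPM per kilobase of exon), Col4a1 was the highest of the 9 at P6 (41.2 ± 16.4, SD, n = 10) and P15 (26.5 ± 14.2, n = 12), followed at both ages by Col4a2 (23.7 ± 9.48 and 16.9 ± 9.64) and Pdgfrb (15.8 ± 7.24 and 14.8 ± 9.27). At 8 weeks Pdgfrb came first (15.1 ± 7.45, n = 12), followed by Col4a1 (5.73 ± 2.41), Col4a2 (3.57 ± 1.52) and Fn1 (3.22 ± 1.23). The intervals of mean ± SD overlapped between neighbours in each of these orders, but they give the spread between mice and not the order within a mouse. Within a mouse the ratio of Col4a1 to Col4a2 counts was never below 1.53, and that of Col4a1 to Pdgfrb never above 0.870 at 8 weeks. With exon lengths of 7.464 kb for Col4a1, 6.619 kb for Col4a2 and 5.478 kb for Pdgfrb, both orders held in each of those mice. The fibrillar chains at P6 were at 9.01 ± 2.82 for Col1a1, 6.70 ± 1.86 for Col1a2 and 6.57 ± 2.05 for Col3a1, and Lum was the lowest of the 9 at every age, from 0.838 ± 0.268 at P6 to 0.432 ± 0.187 at 8 weeks. The order depended on the length used. With the main transcript in place of all exons the fibrillar chains at P6 came to 15.6 RPKM for Col1a2, 11.6 RPKM for Col3a1 and 9.97 RPKM for Col1a1, and Dcn to 4.53 RPKM in place of 1.36. At 8 weeks Fn1 (4.53 RPKM) then stood above Col4a2 (3.66 RPKM), while Pdgfrb and Col4a1 kept the first and second place.

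Other matrix genes were counted in lists chosen by function. Over all tested genes 12.4% were past 2-fold lower and 2024 of 17612 higher at 8 weeks against P6. The shares against no change were 36.6% lower and 37.8% higher. Of 13 other fibrillar collagens and small leucine-rich proteoglycans that passed the filter, 6 were past 2-fold lower and 2 higher at 8 weeks against P6, with a median log2FC of −0.60. Against no change 6 were lower and 5 higher. By limma-voom and by DESeq2 5 were past 2-fold lower and 2 higher. The 2 past 2-fold higher, named here after their values were seen, were the collagen gene Col27a1, from 44.6 to 284 CPM (log2FC 2.71, SE 0.116), and the proteoglycan gene Prelp, from 4.39 to 26.8 CPM (2.57, SE 0.287). Col11a1 and Col5a1, minor fibrillar chains that help nucleate collagen fibrils, went from 11.5 to 0.644 CPM (log2FC −4.16, SE 0.385) and from 10.3 to 1.47 CPM (−2.84, SE 0.226), and Col2a1, the cartilage chain, from 7.69 to 1.05 CPM (−2.97, SE 0.382).

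Of 25 other basement membrane genes, 11 were past 2-fold lower and 2 higher, with a median log2FC of −1.14, and against no change 14 were lower and 4 higher. By limma-voom and by DESeq2 9 were past 2-fold lower and 2 higher. Col18a1, the precursor of endostatin, went from 37.1 CPM at P6 to 3.04 CPM at 8 weeks (log2FC −3.64, SE 0.281), Lamb1 from 52.6 to 6.46 CPM (−3.05, SE 0.283) and the calcium-binding matrix protein gene Smoc1 from 37.6 to 6.22 CPM (−2.63, SE 0.296). Higher past 2-fold were Col15a1 (from 26.5 to 70.8 CPM, log2FC 1.44, SE 0.102) and Col4a3, and Sparc, a collagen-binding matrix protein gene and the most abundant of the list, rose against no change from 1954.5 to 4267 CPM (1.16, SE 0.112). At P15 Sparc averaged 6751 CPM, above both other ages. Col15a1 and Sparc were named after their values were seen. The other type IV chains were at lower levels and did not all move one way. Col4a5 and Col4a6 fell by 1.65 (SE 0.219) and 2.13 (SE 0.277) on the log2 scale, Col4a3 rose by 2.57 (SE 0.459) but from 0.179 to 0.857 CPM, and Col4a4 did not pass (−0.46, SE 0.340, FDR 0.222).

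Of 28 genes of collagen synthesis and cross-linking 3 were past 2-fold lower and 3 higher, beside 12.4% of all tested genes lower and 2024 of 17612 higher, and against no change 15 were lower and 7 higher, with a median log2FC of −0.30. Past 2-fold, limma-voom gave 2 lower and 3 higher, and DESeq2 gave 2 lower and 2 higher. The lysyl oxidase Loxl2 went from 4.36 to 0.530 CPM (log2FC −3.06, SE 0.323) and the procollagen protease Adamts3 from 2.5 to 0.487 CPM (−2.35, SE 0.358), whereas the prolyl 3-hydroxylase gene P3h2 rose from 20.7 to 106.6 CPM (2.43, SE 0.165). Of 16 fibronectin and collagen receptors 4 were past 2-fold lower and 1 higher, with a median of −0.42, and against no change 8 were lower and 5 higher. By limma-voom the counts past 2-fold were 3 and 0 and by DESeq2 2 and 0, and at an unadjusted p of the 2-fold test below 0.05 both gave 4 and 0. Those lower by edgeR included the integrin gene Itga11 (log2FC −3.46, SE 0.458, from 1.74 to 0.161 CPM) and the collagen receptor kinases Ddr2 (−1.79, SE 0.222) and Ddr1 (−1.61, SE 0.287).

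Around Pdgfrb itself the 5 PDGF genes listed diverged. Pdgfb, its main ligand, rose from 170.5 CPM at P6 to 460.5 CPM at 8 weeks (log2FC 1.51, SE 0.143) and the ligand gene Pdgfd from 0.975 to 3.18 CPM (1.74, SE 0.285). Pdgfra, the receptor of oligodendrocyte precursors and fibroblasts, fell by 3.43 on the log2 scale (SE 0.254, from 123 to 11.9 CPM). With 1 gene past 2-fold lower and 2 higher, the median of the list was 0.90, and limma-voom placed 1 gene past 2-fold higher. Of 20 matrix proteases and inhibitors 6 were past 2-fold lower and 4 higher, with a median of 0.34. The higher count was 1 by limma-voom and 2 by DESeq2. Mmp24 went from 72.7 to 2.98 CPM (log2FC −4.63, SE 0.446) and Mmp16, a further membrane-bound metalloproteinase gene, from 8.5 to 1.02 CPM (−3.08, SE 0.326), while Timp1 was past the threshold at levels of 0.451 CPM at P6 and 0.0420 CPM at 8 weeks, the latter below the level of 3 counts. The 4 past 2-fold higher, named after their values were seen, were Adamts1 (from 213 to 530 CPM, log2FC 1.36, SE 0.176), the inhibitor gene Timp4 (from 14.6 to 50.8 CPM, 1.76, SE 0.294), Mmp8 (from 0.881 to 3.07 CPM, 1.75, SE 0.366) and Mmp13 (from 0.307 to 1.18 CPM, 2.15, SE 0.414), and against no change 8 of the list were lower and 10 higher.

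Markers of the cells known to make matrix were counted over the same ages, and those named only for passing 2-fold or for going against their list were chosen after their values were seen. Over all tested genes 12.4% were past 2-fold lower and 2024 of 17612 higher at 8 weeks against P6. Against no change 36.6% were lower and 37.8% higher, and these shares stand beside all marker lists that follow. Of 14 mural cell markers (pericytes and smooth muscle) 0 were past 2-fold lower by edgeR and 1, the smooth muscle myosin gene Myh11 (log2FC 2.0), was higher at 8 weeks against P6, which limma-voom did not call. Limma-voom and DESeq2 also placed 0 past 2-fold lower, and 0 had an unadjusted p of the 2-fold test below 0.05 in that direction by any tool. Against no change 3 were lower and 2 higher, and the median log2FC was −0.50. The summed level of the 14 had medians of 923, 713 and 670 CPM at P6, P15 and 8 weeks, with ranges of 189 to 1449, 169 to 1390 and 212 to 1376 CPM. The most abundant were Rgs5 (log2FC −1.25, FDR 0.0015), Vtn (0.65, FDR 0.0867) and Notch3 (−0.58, FDR 0.111).

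Of 18 markers of meningeal and perivascular fibroblasts 4 (Osr1, Cemip, Fbln2 and Islr, between −2.87 and −2.15) were past 2-fold lower and 0 higher, 13 were lower and 0 higher against no change, and the median log2FC was −1.11. Their summed level had medians of 214, 187 and 99.9 CPM and ranges of 78.7 to 281, 73.0 to 518 and 51.1 to 214 CPM at the 3 ages, and Foxc2, Slc47a1 and Osr1 were at 0 in at least 1 library. The most abundant were Igfbp2 (log2FC −0.87, FDR 0.00852), Lamc3 (−0.55, FDR 0.112) and Fbln1 (−1.26, FDR 6.5e-06). Of 17 endothelial markers 0 were past 2-fold lower and 7 higher, with a median log2FC of 0.56 and summed medians of 163, 321 and 351 CPM, with Slco1c1 (1.5), Pecam1 (1.29) and Flt1 (2.10) the most abundant. Against no change 8 endothelial markers were higher, 0 were lower and 9 did not pass. By limma-voom 5 and by DESeq2 4 endothelial markers were past 2-fold higher. The counts of 0 for fibroblast markers higher and endothelial markers lower were also 0 by limma-voom and DESeq2 and at an unadjusted p below 0.05. The part of these cells in the falls of the collagens was not tested.

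The remaining marker lists are given for their direction at 8 weeks against P6, with counts by edgeR unless another tool is named. All 8 markers of neural progenitors and immature neurons were past 2-fold lower (median −4.92, Tubb2b −2.97, Sox11 −5.35 and Dcx −6.29), as were 3 of 6 neuronal markers (Tubb3 −4.92, Stmn2 −4.15 and Rbfox3 −2.05, while Snap25 rose by 0.99 against no change and Syt1 was at −0.11) and 2 of 6 choroid plexus markers (Otx2 −2.55 and Aqp1 −2.83, with Ttr at −1.22 and Clic6 at 0.06 not passing, while Kl rose by 1.31 against no change). Of 8 microglial markers 7 were past 2-fold higher (P2ry12 1.86 and Tmem119 3.10 among them). Higher past 2-fold were also 4 of 8 astrocyte markers (Slc1a2 2.43 and Aldoc 2.59, with Slc1a3 at 1.17, while Gfap fell by 1.31 against no change), 5 of 9 monocyte and neutrophil markers (S100a9 2.16 and S100a8 2.12, with Ngp at −0.85 not passing) and 3 of 9 oligodendrocyte markers (Mbp was at 1.26 and Cnp at 0.51), and 2 of the 9 were lower (Sox10 −1.93 and Olig1 −1.75). Of 9 markers of border-associated macrophages 2 were past 2-fold lower (Lyve1 −2.57 and Pf4 −1.56, while Mrc1 at −1.29, F13a1 at −0.60 and Stab1 at 0.23 were the most abundant), and 0 of 5 erythrocyte markers passed by edgeR, limma-voom or DESeq2 in either direction, with or without the fold threshold or adjustment (Hbb-bs −0.16, Hba-a1 −0.37 and Alas2 −0.44).

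**Figure D5:**
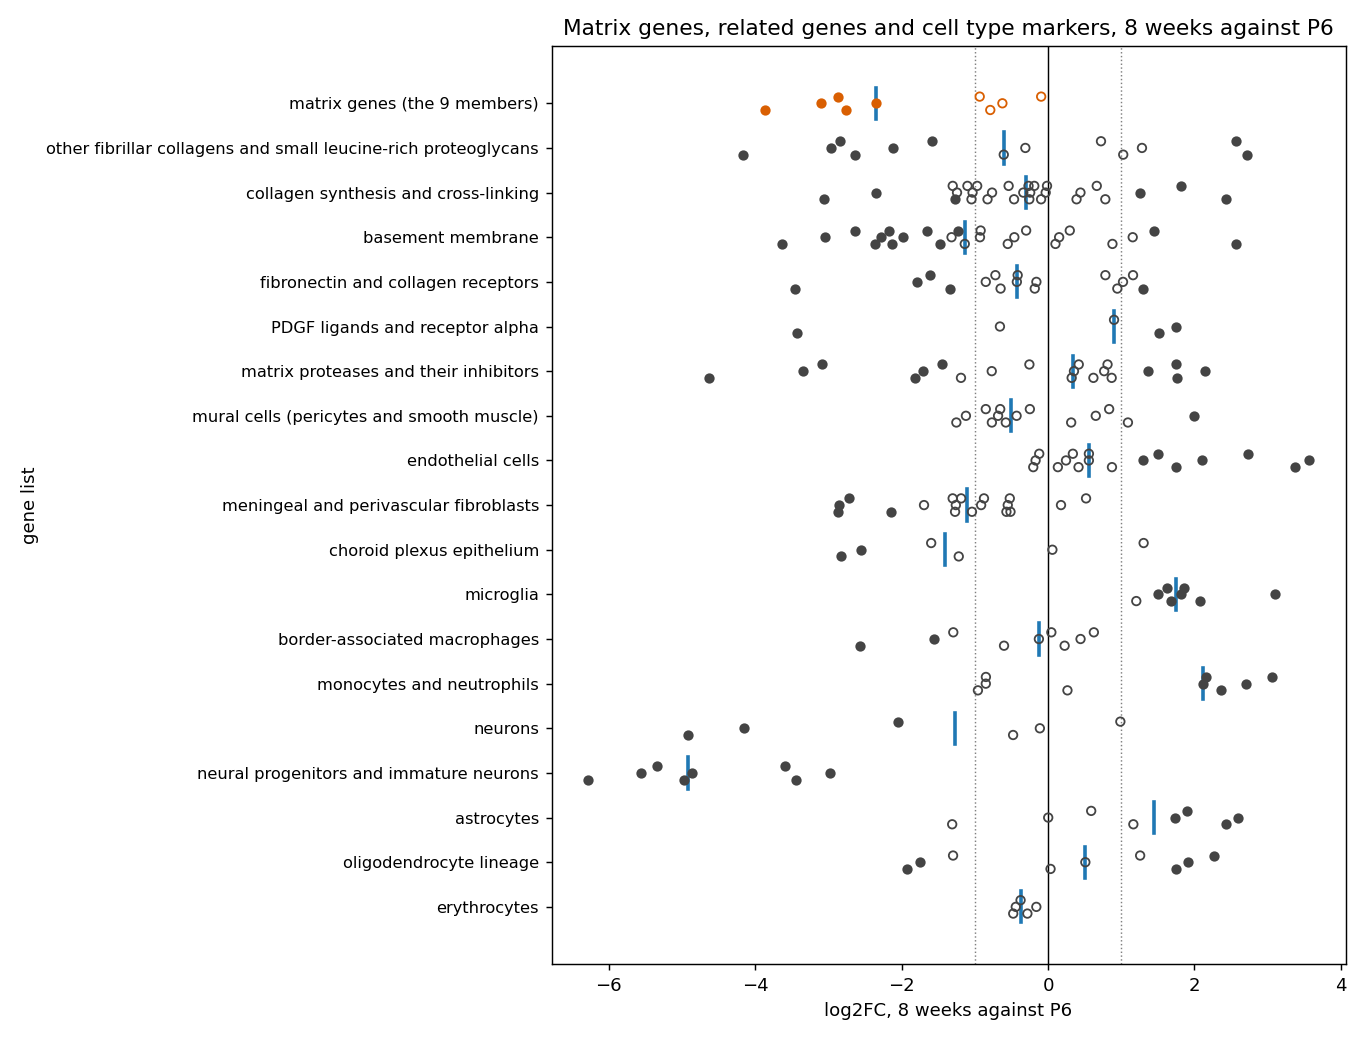
The log2FC at 8 weeks against P6 of the 9 matrix genes, of related genes by function and of cell type markers, with 1 point per gene, filled where the change was past the 2-fold threshold, a blue bar at each list's median and dotted lines at 2-fold. The matrix genes have a median of −2.34, the mural cell markers −0.50 and the endothelial markers 0.56.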

How the data were processed

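CD45+ve mRNA of 35 C57BL/6 mice at P6, P15 and 8 weeks was analysed, with 1 library per mouse. The authors aligned reads to GRCm38/mm10 with STAR, counted fragments by strand with featureCounts, and deposited raw counts per gene for each mouse, unfiltered and not normalised. The submitters' processing notes also list fastp 0.20.0, with no role stated for these libraries. The annotation release is not given in the sources used here. Symbols, coordinates and lengths came from GENCODE M21 on GRCm38, where 55141 of 55401 genes had a name. Library totals were between 23316107 and 38965078 counts.

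The filter kept genes that reached 0.5 CPM in 5 or more mice, and TMM scaled the libraries. A quasi-likelihood fit in edgeR 4.0.16 (R 4.3.3) gave every combination of age and sex its own mean (6 groups, 34 mice), age contrasts averaged the sexes, glmTreat tested against 2-fold and glmQLFTest against no change, two-sided, at an FDR of 0.05 over 17612 genes. Intervals are the log2FC with its 95% normal interval. Log2 CPM used a prior count of 2. Scripts were tested on simulated data. Alternatives were limma 3.58.1, DESeq2 1.42.0, other scalings, filters, covariates and samples, a replicate block and leaving out each mouse. The main-transcript length was added after seeing the data.

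The 9 genes, the gene lists and the 4 ratios were chosen with earlier results of these data known. Besides the 9, the genes named by rule were up to 3 per functional list with the largest change past 2-fold at 8 weeks against P6, the other type IV chains and Pdgfb, the 3 most abundant of each marker list, and the 3 most alike each gene by r. The genes said to be named after their values were seen, and Syt1, Clic6, Foxc2 and Slc47a1, fall outside this rule. Of the most abundant markers, 2 are not reported here. No 2 libraries of 1 group were copies, as the lowest chi-square per gene over 81 pairs was 11.9. Replicates are different mice. The labels name no batch. Intervals and the 3-count limit cover counting error or the spread between mice only.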

Additional observations from a re-analysis of the deposited data

Results flagged for a closer look

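In 3 of 67 groups of 4 to 10 mice (the 9 genes in each age and sex group and in all P6 mice, and the 4 ratios at P6), 1 mouse stood apart from the others by Dixon's test at 95%, where chance gives about 1 in 20. 8-week female 1 had 35.4 CPM of Col1a2, the next female of that age 18.5 CPM, and 190 CPM of Pdgfrb, the next 95.9 CPM. P6 male 5 had 20.7 CPM of Col3a1, the next P6 mouse 55.3 CPM.

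P6 female 6, which entered only the fits of all 35 mice, was above all other P6 mice for 8 of the 9 genes and above all 34 mice for 7. Scaled among all 35 libraries it had 104.9 CPM of Col1a1, 150.5 CPM of Col1a2, 113 CPM of Col3a1, 557 CPM of Col4a1, 281 CPM of Col4a2, 15.2 CPM of Dcn, 108 CPM of Fn1 and 151 CPM of Pdgfrb, between 1.71 and 1.91 times the P6 means, and its Lum level of 3.20 CPM was within the range of the others. Its summed marker levels were above the highest of the other P6 mice for the oligodendrocyte lineage (2369 CPM against 972 CPM), astrocytes (2564 against 1363 CPM), neurons (1528 against 925 CPM), choroid plexus (312 against 206 CPM), fibroblasts (405 against 281 CPM), neural progenitors (2293 against 2023 CPM) and, by little, mural cells (1487 against 1449 CPM). Its sums for microglia (2303 CPM) and border-associated macrophages (840.0 CPM) were below the lowest of the 34 mice. The part of these cells in its matrix levels was not tested.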

How the results depend on the processing

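The counts past 2-fold were 0 at P15 against P6, 5 at 8 weeks against P6 and 5 at 8 weeks against P15 under each of 10 alternatives (all 35 mice, library size alone, DESeq2 size factors, limma-voom, DESeq2, no filter, at least 10 counts in every mouse, the 2 ages compared alone, age without sex, and the replicate block), and leaving out each of the 34 mice gave between 0 and 0, between 5 and 5 and between 5 and 5. With no fold threshold they were 4, 8 and 7. The collagens' log2FC at 8 weeks against P6 kept their direction and call in all of these, with Col3a1 between −4.02 and −3.79 and Col1a2 between −2.49 and −2.29. Lum had no value where every mouse needed 10 counts. The call of Col4a1 at P15 against P6 was lost without a filter (−0.67, FDR 0.0953), with the 2 ages alone (−0.65, FDR 0.0751), without sex (−0.64, FDR 0.0510) and without any of 20 mice (8-week females 4, 5 and 6, 8-week males 1, 4, 5 and 6, P15 females 1, 2, 3 and 4, P15 males 3, 5 and 6, P6 females 1, 2 and 5, and P6 males 1, 2 and 6), and Col4a2 passed in that comparison without P15 female 5 (FDR 0.0413) or P6 male 5 (FDR 0.0467). Same-numbered mice are different animals, and their deviations had r between −0.54 and 0.69 (mean 0.0254) over 80 pairs, beside a mean of −0.0046 over 400 pairs of different number. For 12 of 34 mice the mean r with the mice of each number in other groups was highest for their own number. That is a larger share than the 80 pairs make of all pairs, which is a hint from the data and not from the design. The replicate block gave −3.91 for Col3a1 and −2.92 for Col4a1 at 8 weeks against P6 and changed no call. No call by sex or for its interaction changed under the 6 alternatives run for them (all 35 mice, library size alone, DESeq2 size factors, limma-voom, DESeq2 and the replicate block), and leaving out mice was not run for these. Levels per length moved by more than 1 SD only with the main-transcript length, in 11 of 27 values. Lum, with as few as 7 counts, is limited by depth.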
